A study of Homo sapiens with 22 samples.

Results

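786-O is an established human cell line from a clear cell renal carcinoma, and 786-M1A is a metastatic derivative of it, obtained in earlier work by selecting 786-O cells for their ability to form metastases in mice. The comparison set the 2 libraries of 786-M1A against the 2 libraries of parental 786-O, chosen by their labels, out of 22 samples in the series. All 4 libraries came from cells with no vector or treatment named in the labels. RNA was taken from whole cultures, in which fewer cells of a kind cannot be told apart from less RNA per cell. The cells were grown in RPMI with fetal bovine serum, and poly(A) RNA was sequenced as stranded mRNA libraries. The other samples used below are 6 libraries labelled 786-M1A_SC, from 786-M1A cells with a non-targeting CRISPR interference (CRISPRi) construct, and 2 libraries of OS-LM1, a metastatic line of another renal cancer parent. The labels do not say whether the libraries of a line came from separate cultures, and the p-values therefore rest on library spread, which may be technical.

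Clear cell renal carcinoma arises from the kidney tubule and usually lacks the VHL protein, which leaves hypoxia-inducible factors stable in normal oxygen. A carcinoma cell that spreads has to leave its neighbours, cross basement membrane and vessel walls, and grow in another tissue. Some of the gene lists used below touch on those steps, and others cover kidney, metabolic, immune and chromatin genes. All lists were chosen with earlier results of these data known.

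The expected counts summed to 52706490 and 49301935 for 786-M1A and to 39698973 and 41805996 for 786-O. The 20 most abundant genes took 8.10% and 8.02% of the counts in 786-M1A and 6.29% and 6.19% in 786-O. PAX8, a transcription factor of the renal lineage, stood at 94.99 and 87.1 transcripts per 1000000 (TPM) in 786-M1A and at 96.7 and 92.4 TPM in 786-O. Of 12 markers of renal carcinoma epithelium, 11 reached 1 TPM in at least 1 library, and CA9, a target of hypoxia-inducible factor 1 that marks many clear cell tumours, did not exceed 0.23 TPM. Markers of other cells were mostly absent: all 9 endothelial and all 5 erythroid markers stayed under 1 TPM, as did 8 of 11 leukocyte markers, among which CD3E, MS4A1 and TYROBP were at 0. Of the 11 fibroblast and pericyte markers, 6 stayed under 1 TPM and DCN was at 0. Their summed level was 96.9 and 94.1 TPM in 786-M1A against 23.95 and 22.3 TPM in 786-O, and PDGFRB made up most of the first pair.

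Expression differed between the lines at many genes, mostly by small amounts. Of 15474 genes tested with edgeR's quasi-likelihood test, 8733 (56.4%) passed an adjusted p of 0.05, which is the meaning of rose, fell and called below. By direction, 4390 genes (28.4%) rose in 786-M1A and 4343 (28.1%) fell. A difference of at least 2-fold was called at 2045 genes (13.2%), of which 591 (3.82%) were higher and 1454 (9.4%) lower in 786-M1A. Differences are given below as log2 of 786-M1A over 786-O, with a standard error (SE) where one is printed. With upper quartile scaling in place of TMM, 3508 genes were called higher and 5295 lower, so that 39.9% of calls were higher instead of 50.3%, and the median over all genes moved from −0.02 to −0.10. With limma on log2(TPM + 1) the split was 3484 higher and 4869 lower, with 315 and 724 at 2-fold. A test against a 2-fold difference (glmTreat) called 348 genes higher and 840 lower, and a fit that included OS-LM1 called 5064 genes in all.

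The excess of falls was strongest, as a ratio, among weakly expressed genes and was present up to 50 CPM. Where the line with more of a gene averaged under 1 count per 1000000 counts (CPM), 410 genes were at least 2-fold lower in 786-M1A and 100 were higher. From 1 to 5 CPM the counts were 516 and 149, and from 5 to 50 CPM they were 426 and 215. At 50 CPM or more the order turned, with 102 lower and 127 higher. Changes of 8-fold or more numbered 386 lower and 84 higher, of which 94 and 38 reached 5 CPM in a line. Counting error is largest for the weakest genes, and the named genes were therefore drawn from those with at least 5 CPM in a line.

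**Figure D1:**
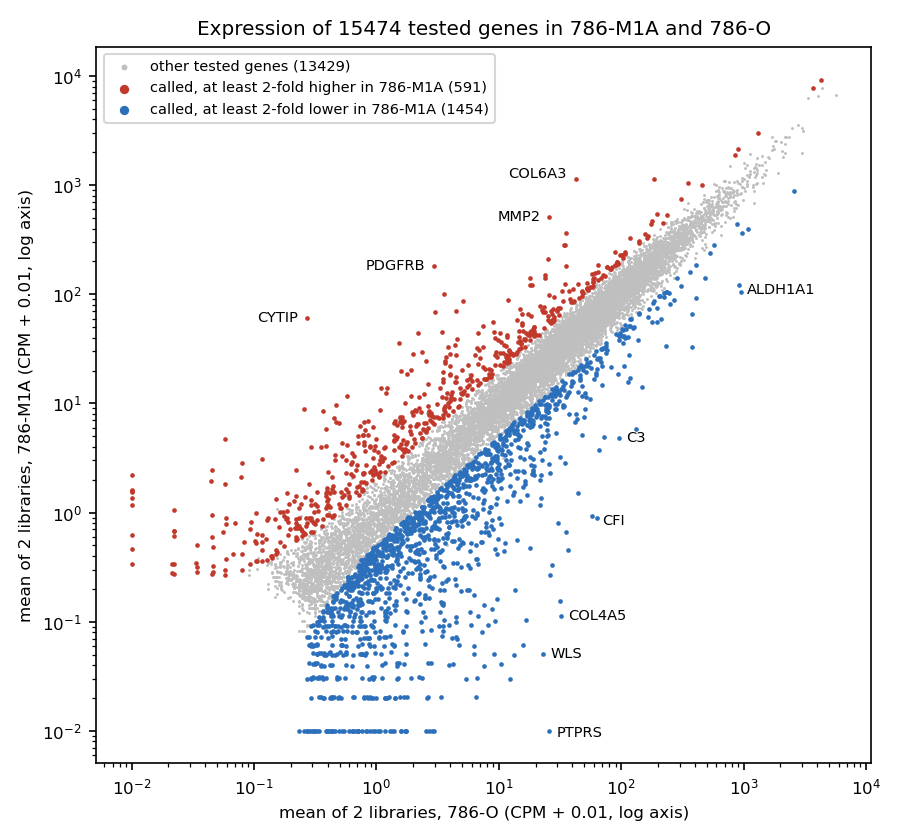
Mean expression of each tested gene in 786-O (x axis) and 786-M1A (y axis), both in CPM on log axes, with genes called at 2-fold or more in colour and the largest changes named. The cloud of 591 higher genes is thinner than that of 1454 lower genes, which is widest at low expression.

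The largest rises joined an adaptor protein, a growth factor receptor, matrix genes and binding proteins of insulin-like growth factors. In 786-M1A, CYTIP, a cytohesin-interacting protein of leukocyte adhesion, had 61.7 and 58.6 CPM, where the 786-O libraries had 0.267 and 0.252. PDGFRB, the beta receptor of platelet-derived growth factor, stood at 188 and 177 CPM against 2.81 and 3.09 CPM. Both pairs of libraries were far apart, with differences of 7.84 (SE 0.14, adjusted p = 9.35e-22, edgeR) for CYTIP and 5.95 (SE 0.09, adjusted p = 2.40e-23, edgeR) for PDGFRB. Beside CYTIP, of the 11 leukocyte markers 8 stayed under 1 TPM, PTPRC among them at no more than 0.26 TPM, while the macrophage and lysosome gene CD68 rose by 1.29 and made up most of a summed level of 99.3 and 99.6 TPM in 786-M1A and 46.8 and 46.2 TPM in 786-O. Of the fibroblast and pericyte markers other than PDGFRB, LUM and COL1A1 fell (−2.93 and −1.24), and ACTA2 and RGS5 rose (0.47 and 0.41), RGS5 without passing when OS-LM1 was in the fit. The part of such cells in these results was not tested. The promoters of CYTIP and PDGFRB, from 250 bases before to 50 bases after the start, are shown because they head the list of rises. They come from RefSeq on GRCh38.p14, not the hg19 build of the expression files, and read 5′ to 3′ on the minus strand, with each CG dinucleotide in capitals.
CYTIP, chr2:157444040-157444339, minus strand: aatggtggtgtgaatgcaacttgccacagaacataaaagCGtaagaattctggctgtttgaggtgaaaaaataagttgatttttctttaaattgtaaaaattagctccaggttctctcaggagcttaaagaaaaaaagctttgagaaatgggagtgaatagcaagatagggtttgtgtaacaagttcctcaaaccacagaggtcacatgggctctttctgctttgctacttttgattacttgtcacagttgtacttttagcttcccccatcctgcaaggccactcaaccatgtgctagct
PDGFRB, chr5:150155796-150156095, minus strand: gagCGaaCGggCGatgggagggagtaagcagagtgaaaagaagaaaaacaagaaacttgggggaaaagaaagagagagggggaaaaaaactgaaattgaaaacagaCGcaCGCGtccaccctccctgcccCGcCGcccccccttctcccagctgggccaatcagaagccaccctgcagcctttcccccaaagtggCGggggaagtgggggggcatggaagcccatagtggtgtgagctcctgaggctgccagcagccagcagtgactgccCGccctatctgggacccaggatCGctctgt
The CYTIP window holds 1 CG and the PDGFRB window 11, beside a median of 14 over the 35116 promoter windows of the table, 96.0% of which hold at least 1, and a median of 25 over the 11767 tested genes with an entry.

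GFRA2, a co-receptor for neurturin, had 9.14 and 8.44 CPM in 786-M1A, against 0.146 and 0.344 CPM in 786-O. IGFBP1 and IGFBP4, secreted proteins that bind insulin-like growth factors, rose by 4.81 and 4.40. IGFBP1 went from 3.13 and 3.94 CPM in 786-O to 103 and 96.0 CPM in 786-M1A, and IGFBP4 from 0.485 and 0.435 to 10.4 and 9.05 CPM. The libraries of the lines did not overlap at any of these genes. COL6A3, a chain of collagen VI, reached 1108 and 1181 CPM in 786-M1A and was at 43.8 and 41.1 CPM in 786-O. LTBP1, which holds latent TGF-beta in the matrix, had 35.4 and 36.0 against 1.504 and 1.56 CPM. MMP2, the gelatinase that cleaves basement membrane collagen, had 525 and 499 against 25.4 and 25.9 CPM. COL6A3 and MMP2 had the highest CPM in 786-M1A of the 12 largest rises. The other 4 of the 12 largest rises were PRIMA1 (4.59), which anchors acetylcholinesterase in membranes, GALNT5 (4.51), which starts O-linked sugar chains, the diacylglycerol kinase DGKI (4.37) and the sorting receptor SORCS2 (4.34).

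Among the largest falls were genes with almost no counts left in 786-M1A. PTPRS, a receptor-type tyrosine phosphatase of cell adhesion and axon growth, had 0 counts in both 786-M1A libraries and 26.3 and 24.9 CPM in 786-O. Its 2172 counts in 786-O against a floor of 3 counts over both 786-M1A libraries made it at least 835-fold lower in 786-M1A. WLS, the carrier that takes WNT proteins to the cell surface, had 0.0395 and 0.0423 CPM in 786-M1A, against 24.4 and 21.6 CPM in 786-O (−9.04, SE 0.24, adjusted p = 7.31e-19, edgeR). Promoters of WLS and of PTPRS, UBD and ANO3, which are genes near 0 in 786-M1A that have an entry in the same table, are shown in the same format.
PTPRS, chr19:5340763-5341062, minus strand: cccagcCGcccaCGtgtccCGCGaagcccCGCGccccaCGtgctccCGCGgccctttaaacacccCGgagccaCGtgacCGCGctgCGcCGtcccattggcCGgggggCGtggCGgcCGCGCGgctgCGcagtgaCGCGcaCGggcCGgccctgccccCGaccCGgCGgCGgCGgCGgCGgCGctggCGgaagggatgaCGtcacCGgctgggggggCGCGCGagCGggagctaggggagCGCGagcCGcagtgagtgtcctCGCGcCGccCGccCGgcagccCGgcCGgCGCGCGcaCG
WLS, chr1:68232497-68232796, minus strand: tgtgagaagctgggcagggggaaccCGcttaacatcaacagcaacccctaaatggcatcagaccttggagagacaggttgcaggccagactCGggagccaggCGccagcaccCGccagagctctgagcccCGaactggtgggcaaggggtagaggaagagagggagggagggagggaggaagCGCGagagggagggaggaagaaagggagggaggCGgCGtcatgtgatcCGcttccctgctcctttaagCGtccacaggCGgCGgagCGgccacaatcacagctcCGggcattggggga
UBD, chr6:29559683-29559982, minus strand: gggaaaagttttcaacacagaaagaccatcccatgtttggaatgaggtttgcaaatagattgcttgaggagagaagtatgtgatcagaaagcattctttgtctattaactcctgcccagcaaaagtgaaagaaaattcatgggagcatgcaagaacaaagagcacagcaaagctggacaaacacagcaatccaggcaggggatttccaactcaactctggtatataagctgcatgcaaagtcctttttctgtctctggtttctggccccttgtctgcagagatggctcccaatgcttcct
ANO3, chr11:26473705-26474004, plus strand: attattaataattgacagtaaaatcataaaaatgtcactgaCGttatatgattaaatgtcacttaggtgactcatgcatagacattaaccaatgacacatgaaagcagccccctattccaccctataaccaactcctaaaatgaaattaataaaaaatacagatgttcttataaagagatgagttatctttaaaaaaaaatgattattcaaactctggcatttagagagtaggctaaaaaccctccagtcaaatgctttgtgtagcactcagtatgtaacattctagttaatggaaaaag
PTPRS holds 55 CG in this window, WLS 15, ANO3 1 and UBD 0, so that windows rich and poor in CG both occur among the falls. Whether CG content differs between the genes that rose and fell was not tested.

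COL4A5, a collagen IV chain of the glomerular basement membrane, had 0.0790 and 0.127 CPM in 786-M1A, against 32.3 and 32.2 CPM in 786-O. PTK7, a WNT co-receptor of planar cell polarity, had 0.0790 and 0 CPM against 14.5 and 12.03 CPM. NUP210, a membrane protein of the nuclear pore, had 0.0592 and 0.0423 against 15.1 and 16.2 CPM. These 3 genes fell by 8.26, 8.25 and 8.18 on the log2 scale, and ELFN1, a synaptic adhesion protein, fell by 7.75. In each of them the 786-O libraries lay far above those of 786-M1A.

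Of genes with at least 5 CPM in both libraries of 1 line, 7 had at most 3 summed counts in 786-M1A and 0 had so few in 786-O. Beside PTPRS they were ENPP4, TEX15, LRCH2, TMEM98, UBD and ANO3, whose ratios rest on 1 to 3 counts and carry exact 95% intervals for counting error only. The ratio of 786-O over 786-M1A was 642 for ENPP4, a nucleotide-cleaving ectoenzyme (115 to 25420), and 607 for TEX15, a germ cell protein (168 to 5016). It was 341 for LRCH2 (116 to 1659) and 325 for the membrane protein TMEM98 (89.5 to 2688). UBD, a ubiquitin-like modifier induced by inflammatory cytokines, had 265 (72.9 to 2192), and ANO3, of the anoctamin family, 248 (84.5 to 1206). When 1 CPM counted as present, 45 genes were near 0 in 786-M1A, 14 of them at 0 counts, and 3 in 786-O.

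Several of those 45 are named here after their values were seen. HS6ST2, a heparan sulfate sulfotransferase, the cadherin CDH11, the secreted WNT inhibitor SFRP2 and the transcription factor CEBPA had 0 counts in 786-M1A, and the bounds were at least 95.7-fold, 45.0-fold, 51.1-fold and 41.9-fold lower. NR3C2, the mineralocorticoid receptor of the distal tubule, had 1 count in 786-M1A and 120 in 786-O. In the other direction CXCR4, a chemokine receptor, was 69.4 times higher in 786-M1A with an exact interval from 23.5 to 339, and QPCT, which cyclises N-terminal glutamine, was at least 38.4-fold higher. The third, H3F3A, has near-identical copies and is uncertain.

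**Figure D2:**
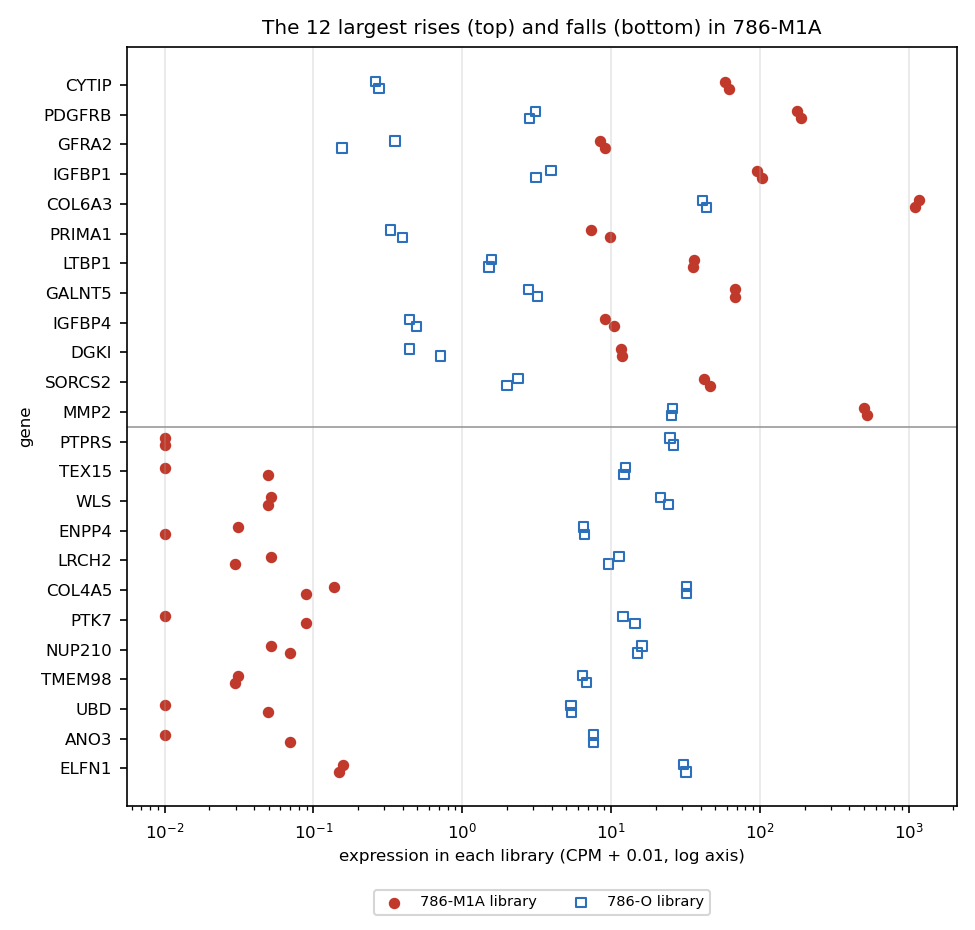
Expression of the 12 largest rises and 12 largest falls in each library, in CPM plus 0.01 on a log axis, with filled circles for 786-M1A and open squares for 786-O. Replicates of a line lie close together except at a few counts, and points at the left edge are libraries with 0 counts, such as both 786-M1A libraries at PTPRS.

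The 6 libraries of 786-M1A cells with a non-targeting CRISPRi construct were not in the fit and show the same genes in other libraries of the line. WLS was at 0 to 0.03 TPM there (median 0) and PTPRS at 0 to 0.05 TPM (median 0.01), while the 786-O libraries had 23.2 and 19.5 TPM of WLS and 9.23 and 8.63 TPM of PTPRS. Of the 12 largest falls, 10 did not exceed 0.11 TPM in any of these libraries, and the exceptions were UBD (0.87 to 3.11 TPM) and ELFN1 (0.03 to 1.17 TPM). All 12 rises lay lower in each of these libraries than in 786-M1A without the construct, by differing amounts. PDGFRB ran from 39.6 to 63.7 TPM (median 46.3) and DGKI from 3.67 to 5.03 TPM (median 4.57), beside 75.0 and 71.2 TPM and 5.69 and 5.59 TPM in 786-M1A without the construct. CYTIP ran from 1.16 to 9.18 TPM (median 1.39), under its 64.3 and 61.7 TPM in the line without the construct and above the 0.29 and 0.28 TPM of 786-O. COL6A3 ran from 38.6 to 122.7 TPM (median 40.7) beside 262.6 and 282 TPM in 786-M1A, and MMP2 from 85.3 to 235 TPM (median 91.1) beside 341 and 327 TPM. IGFBP1 had a median of 29.5 TPM beside 145 and 136 TPM, GALNT5 of 8.04 TPM beside 49.6 and 50.7 TPM, and SORCS2 of 6.03 TPM beside 17.4 and 15.99 TPM. LTBP1 had a median of 1.175 TPM beside 15.2 and 15.7 TPM. At these 6 genes the libraries with the construct stayed above those of 786-O. GFRA2 (0 to 1.64 TPM, median 0.025), PRIMA1 (0.09 to 3.03 TPM, median 0.415) and IGFBP4 (0.13 to 2.52 TPM, median 0.255) overlapped the 786-O libraries, which had 0.11 and 0.28 TPM of GFRA2, 0.26 and 0.21 TPM of PRIMA1 and 0.53 and 0.47 TPM of IGFBP4. No test was run on these values. The libraries with the construct held 10458838 to 24366314 expected counts, fewer than the 52706490 and 49301935 of 786-M1A without it. The mean length of counted genes, weighted by counts, was 3264 to 3716 bases with the construct and 3929 and 3982 bases without it. The labels do not say whether both kinds were prepared together, and the reason for the lower levels was not tested.

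**Figure D3:**
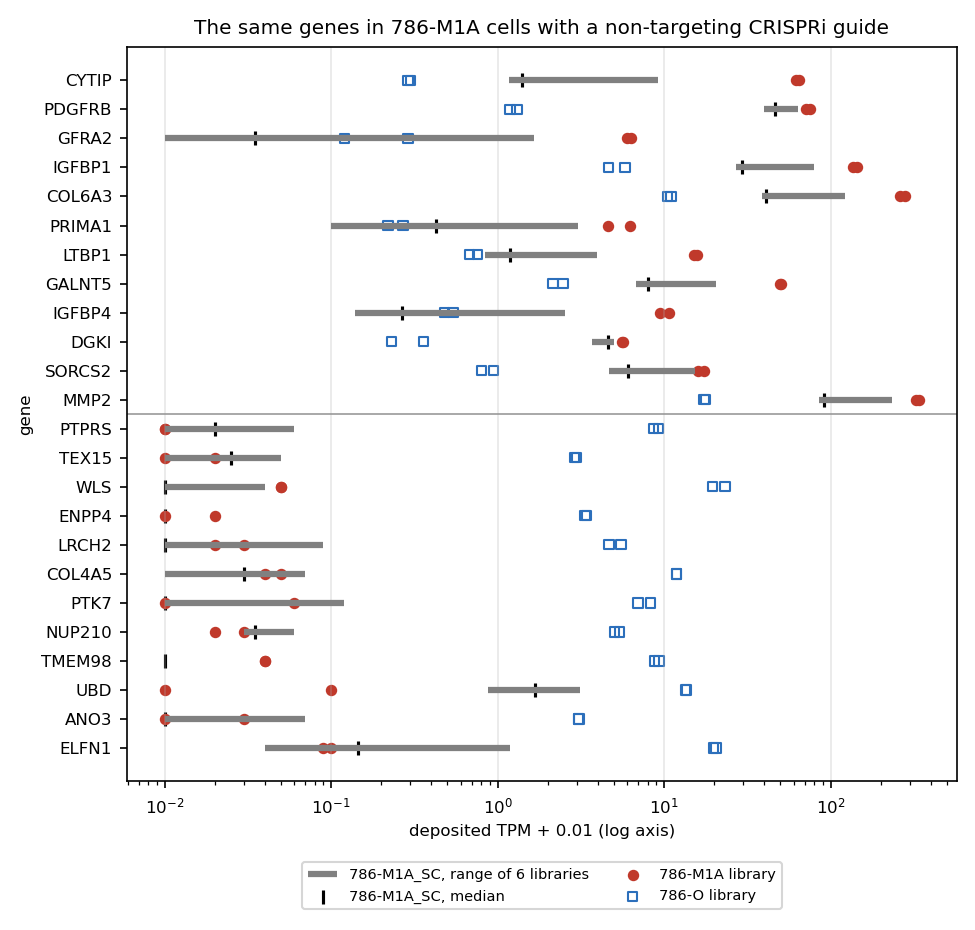
Deposited TPM (plus 0.01, log axis) of the 24 genes with the largest changes in 786-M1A, in 786-O and in the 6 libraries of 786-M1A with a non-targeting CRISPRi construct. The falls stay near 0 in the construct libraries apart from UBD and ELFN1, all 12 rises lie under the 786-M1A libraries without the construct, and GFRA2, PRIMA1 and IGFBP4 overlap the 786-O libraries.

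Among abundant genes the changes were fewer and smaller. Of 310 genes with a mean of at least 500 TPM in a line, a limit chosen after the data were seen, 15 were called with at least a 2-fold difference. The 9 that rose included TGFBI, a secreted collagen-binding protein, with 7599 and 7661 TPM in 786-M1A and 3815 and 3623 TPM in 786-O. TGM2, a transglutaminase that crosslinks matrix proteins, stood at 684 and 674 TPM against 123 and 108 TPM, and CD44, the hyaluronan receptor, at 495 and 539 against 187 and 178 TPM. The filamins FLNA and FLNC, which crosslink actin, rose by 1.08 and 1.21. ALDH1A1, which makes retinoic acid from retinal, had 117 and 123 TPM in 786-M1A and 927 and 948 TPM in 786-O, and SPP1, osteopontin, had 66.1 and 67.2 against 371 and 382 CPM. The surface protein CD24 (−1.56) and the annexin ANXA4 (−1.80) also fell. UGT1A6 fell as well, and it shares exons with its neighbours, so its reads cannot be assigned with certainty.

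The matrix list showed movement in both directions by family. For this and each list below, the shares over all tested genes were 28.4% higher and 28.1% lower. At 2-fold or more they were 3.82% higher and 9.4% lower. These 2-fold shares varied with expression in the line with more of a gene. They were 4.75% higher and 19.5% lower under 1 CPM, and 6.54% and 22.7% from 1 to 5 CPM. From 5 to 50 CPM they were 3.57% and 7.07%. The lists were not matched for expression level, and its part in the share of any list was not tested. Of 22 tested collagen genes, 5 were called at least 2-fold higher and 6 lower, together 50% against 13.2% of all genes. Collagen VI chains were among the rises, COL6A3 by 4.75 and COL6A1 by 1.08, with COL12A1 at 1.59 and COL16A1 at 2.12. Collagen IV chains were among the falls, COL4A5 above and COL4A1, the common chain of basement membrane, at 354 and 372 CPM in 786-M1A, against 988 and 956 CPM in 786-O. Of 25 matricellular and elastic fibre genes, 7 were at least 2-fold higher and 3 lower, together 40% against 13.2% of all genes. TNC, tenascin-C, which is laid down in wounds and tumour stroma, had 151 and 149 CPM in 786-M1A, against 25.03 and 22.95 CPM in 786-O.

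Enzymes that mature and crosslink matrix leaned upwards. Of 17 tested, 13 rose and 1 fell, with a median of 0.46 against −0.02 over all genes, and with upper quartile scaling the counts were 12 and 2. LOX, lysyl oxidase, stood at 28.3 and 30.5 CPM in 786-M1A, against 2.30 and 2.38 CPM in 786-O (3.65), PLOD3, a lysyl hydroxylase, rose by 1.18 and TGM2 by 2.64. The 1 that fell, LOXL2, was chosen for mention after its value was seen and had 451 and 442 against 643 and 599 CPM. Proteoglycan core proteins went the other way, with 7 of 13 at least 2-fold lower and 1 higher. Of those 7, only SDC2, GPC4 and GPC6 averaged at least 5 CPM in a line. SDC2, a heparan sulfate proteoglycan of mesenchymal cells, had 17.3 and 16.8 CPM against 116 and 120.2 CPM, GPC4 and GPC6 fell by 1.67 and 1.08 on the log2 scale, and SDC3 rose by 1.14.

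Cell junction genes changed in both directions. Of 42 tested, 15 were at least 2-fold lower in 786-M1A and 6 higher, together 50% against 13.2% of all genes. PKP2, a desmosome plaque protein, had 0.0395 and 0.127 CPM in 786-M1A, against 9.26 and 7.08 CPM in 786-O, and CLDN2, the pore-forming claudin of the proximal tubule, had 4.98 and 4.91 against 74.9 and 68.8 CPM. CDH16, a cadherin of kidney epithelium, fell by 3.15 on the log2 scale and CDH6, of the developing proximal tubule, by 1.01. Rises came from the same classes, such as CDH13, a cadherin without a cytoplasmic domain, at 87.0 and 87.2 CPM against 5.80 and 4.47 CPM. Cadherins had 6 genes 2-fold lower and 1 higher, tight junction genes 5 and 3, and desmosome and gap junction genes 4 and 2. The gap junction genes GJB2 and GJA1 rose by 3.71 and 2.36, and CLDN1 by 1.37.

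Integrin subunits had 5 of 21 at least 2-fold lower and 0 higher, 23.8% against 13.2% of all genes. ITGB3, the beta subunit of the vitronectin receptor, went from 194 and 196 CPM in 786-O to 75.7 and 73.5 CPM in 786-M1A. Its partner ITGAV, named after its value was seen, had 467 and 516 CPM in 786-M1A, against 437 and 472 CPM in 786-O, a difference of 0.11 that did not pass (adjusted p = 0.0695, edgeR). At a minimum count of 50, which tests fewer weak genes, 3 integrin genes were called 2-fold. Of 17 neural-type adhesion molecules, 6 were 2-fold lower, such as NRCAM (−1.78), and 1 higher, NCAM1 (1.1). Among epithelial genes, ELF3, an epithelial transcription factor, had 14.3 and 14.2 CPM in 786-M1A, against 146 and 148 CPM in 786-O.

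Mesenchymal transcription factors and structural genes were mostly higher, at small size. Of 19 tested, 13 rose and 1 fell (median 0.47), but only 3 and 1 by 2-fold or more. Among 7 tested transcription factors 4 rose and 0 fell, and among 12 structural genes 9 rose and 1 fell. The transcription factor genes TWIST1, TWIST2, PRRX1 and GSC had 0 counts in both lines. MYL9, a myosin light chain of contractile cells, rose by 1.24. SNAI2, a repressor of epithelial genes chosen for mention after its value was seen, had 50.1 and 54.9 CPM against 28.4 and 29.8 CPM. KRT19, a keratin of simple epithelium, was higher as well, with 216 and 201 CPM in 786-M1A against 25.8 and 25.2 CPM in 786-O.

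Guidance genes, which steer growing axons and vessels, were mostly lower. Of 50 tested, 30 fell and 10 rose, beside 28.1% and 28.4% of all genes. At 2-fold or more 15 were lower and 3 higher, together 36% against 13.2%. The transmembrane semaphorin SEMA6B had 0.573 and 0.360 CPM in 786-M1A, against 19.7 and 16.3 CPM in 786-O, and SEMA4D and SEMA6D fell by 1.55 and 1.54 on the log2 scale. The secreted SEMA3C rose, from 33.8 and 34.8 CPM in 786-O to 266 and 297 CPM in 786-M1A, as did the semaphorin receptor PLXNA2 (2.64) and EFNB2, a transmembrane ephrin of arterial cells (1.57).

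Receptor tyrosine kinases moved in both directions. Of 27 tested, 8 were at least 2-fold lower and 3 higher, together 40.7% against 13.2% of all genes. The receptors FGFR3 and FGFR2 fell: FGFR3 had 5.63 and 4.65 CPM in 786-M1A, against 48.0 and 47.5 CPM in 786-O, and FGFR2 differed by −1.74. ROR2, a receptor of WNT5A, fell by 1.14 on the log2 scale. PDGFRB and the co-receptor GFRA2 were among the rises given above, and the third, KDR, a VEGF receptor under 1 TPM in every library, was not called with DESeq2. EGFR, AXL and MET, which are often studied as drivers in renal cancer, were chosen for mention after their values were seen. EGFR had 309 and 315 CPM in 786-M1A, against 329.5 and 320.4 CPM in 786-O, AXL had 567 and 549 against 548 and 519 CPM, and neither passed (adjusted p = 0.286 and 0.236, edgeR). MET, the receptor of hepatocyte growth factor, rose by 0.96, from 776 and 761 CPM in 786-O to 1448 and 1537 CPM in 786-M1A.

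The list of growth factors, which also holds binding proteins such as IGFBP1 and IGFBP4, had the largest number of 2-fold rises. These were 11 of 39, beside 9 falls, together 51.3% against 13.2% of all genes. PGF, placental growth factor, a ligand of the VEGF receptor FLT1, had 12.9 and 12.2 CPM in 786-M1A, against 1.504 and 0.893 CPM in 786-O. ARTN, artemin, which signals through GFRA3, rose by 1.89. EGF and IGFBP6 fell by 1.5 and 1.33 on the log2 scale. Of 53 chemokines, interleukins and their receptors, 10 were at least 2-fold higher and 4 lower. ACKR3, a scavenging receptor for CXCL12, had 56.3 and 56.2 CPM against 9.19 and 8.64 CPM. The neutrophil chemokine CXCL8 rose from 3.69 and 4.26 CPM in 786-O to 21.3 and 22.6 CPM in 786-M1A, IL6 from 1.77 and 1.35 to 7.33 and 7.81 CPM, and IL7R by 2.10, whereas CX3CL1 and IL11 fell by 1.22 and 1.08 on the log2 scale.

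Genes of WNT ligands and their secretion were mostly lower. Of 8 tested ligands and secretion genes, 6 were at least 2-fold lower and 1 higher. WLS was given above, and PORCN, which lipidates WNT proteins before WLS carries them, fell by 1.22 on the log2 scale. Apart from WLS, those of the 8 genes that fell by more than PORCN averaged under 5 CPM in both lines. WNT7B, at 44.4 and 42.0 CPM in 786-M1A, rose by 1.14. Of 11 receptors, 7 fell and 2 rose, and of 8 targets and effectors, 5 fell and 2 rose. FZD2 fell by 1.82 and FZD8 rose by 2.03 on the log2 scale. The transcription factors that act with beta-catenin split as well, since LEF1 had 0.0987 and 0.0846 CPM in 786-M1A, against 9.34 and 9.16 CPM in 786-O, while TCF7 had 43.2 and 41.2 against 12.4 and 11.1 CPM. SP5, a target of WNT signalling, rose by 2.85. Of 39 TGF-beta and BMP genes, 3 were 2-fold higher, among them ENG, endoglin (3.51), and 4 lower, a share of 17.9% beside 13.2% of all genes. Of 17 Notch genes, 4 were 2-fold lower (23.5%), among them the fringe enzyme MFNG (−2.74), and 0 higher.

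Most complement factors fell and tissue factor rose. Of 12 complement factors tested, 8 fell and 1 rose, of which 7 were at least 2-fold lower in 786-M1A and 0 were 2-fold higher. C3, the hub of all complement pathways, had 4.64 and 4.89 CPM in 786-M1A, against 98.4 and 93.5 CPM in 786-O (−4.33, SE 0.08, adjusted p = 2.24e-21, edgeR). CFI, the protease that inactivates C3b, had 0.987 and 0.867 CPM against 56.5 and 60.0 CPM. Of the 14 coagulation genes, 4 were 2-fold higher and 3 lower. F3, tissue factor, which starts clotting, had 357 and 369 CPM in 786-M1A, against 34.9 and 36.0 CPM in 786-O. Protein S, an anticoagulant encoded by PROS1, had 7.45 and 8.46 against 42.7 and 42.6 CPM, and F8 rose by 2.06.

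Transporter genes of the kidney tubule were mostly lower. Of 30 kidney transporters, 11 were at least 2-fold lower and 1 higher, together 40% against 13.2% of all genes. At a minimum count of 50, 7 were called 2-fold. ABCB1, the efflux pump P-glycoprotein, had 7.50 and 7.57 CPM in 786-M1A, against 50.8 and 49.6 CPM in 786-O, and SLC17A3, a urate exporter, fell by 2.82 on the log2 scale. SLC13A3, a dicarboxylate carrier, rose by 1.31. Of 19 amino acid transporters, 7 were 2-fold lower and 1 higher, together 42.1%. SLC6A6, the taurine carrier, had 98.1 and 86.4 CPM against 403 and 408 CPM, SLC7A11, the cystine carrier, 23.95 and 26.9 against 64.2 and 67.4 CPM, and the glycine carrier SLC6A9 rose by 2.23. The carbonic anhydrases divided, with CA2 at 27.2 and 28.4 CPM in 786-M1A against 115 and 117 CPM in 786-O and CA12 at 537 and 533 against 239 and 232 CPM.

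Kidney transcription factors included 5 of 20 that were at least 2-fold lower and 1 that was higher. PAX2, which acts with PAX8 in kidney development, had 3.95 and 3.70 CPM in 786-M1A, against 23.3 and 23.6 CPM in 786-O. LHX1, of the early nephron, fell by 1.22 on the log2 scale, and WT1, of the early kidney and podocyte, rose by 1.25. HAVCR1, a marker of injured proximal tubule, had 61.3 and 56.9 CPM against 213 and 212 CPM. Apical enzymes of the tubule differed in direction: MME, neprilysin, had 121 and 123 CPM in 786-M1A, against 18.1 and 19.2 CPM in 786-O, and DPP4, named after its value was seen, 98.3 and 106 against 193 and 195 CPM.

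Metabolic lists differed in how many genes changed. Of 44 genes of lipid droplets and fatty acid handling, 8 were at least 2-fold lower and 5 higher (29.5% against 13.2% of all genes). PPARGC1A, the coactivator of mitochondrial biogenesis, had 0.0987 and 0.275 CPM in 786-M1A, against 12.9 and 14.1 CPM in 786-O. The nuclear-encoded respiratory chain genes had no 2-fold call among 29, although 13 fell and 2 rose by less. G0S2, an inhibitor of fat breakdown, had 41.3 and 36.0 CPM against 4.996 and 4.03 CPM, and CPT1A, which takes fatty acids into mitochondria, rose by 1.09. Of 26 glycolysis genes, 13 rose and 6 fell (median 0.18), but 0 were 2-fold higher and 2 lower, among them PFKFB3 (−1.2). ASS1, of arginine synthesis, rose from 1.96 and 1.86 CPM in 786-O to 21.7 and 18.8 CPM in 786-M1A, ALDH1L2 of mitochondrial folate metabolism rose by 3.05, and CBS of the transsulfuration pathway fell from 27.8 and 30.9 CPM in 786-O to 5.33 and 5.29 CPM in 786-M1A. Retinoid genes had 5 of 18 at least 2-fold lower and 1 higher, together 33.3% against 13.2% of all genes. DHRS3, which reduces retinal, had 0.711 and 0.888 CPM against 29.4 and 31.2 CPM. Of 17 prostaglandin and eicosanoid genes, 5 were 2-fold lower and 3 higher. PTGES, which makes prostaglandin E2, rose by 2.15.

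Genes tied to chromatin marks mostly fell, by modest amounts. Of 23 DNA methylation and Polycomb genes, 15 fell and 5 rose, of which 5 and 0 were 2-fold (21.7% against 13.2% of all genes). The DNA methyltransferases DNMT3B and DNMT3A had 10.1 and 9.77 CPM and 3.81 and 3.64 CPM in 786-M1A against 25.6 and 24.3 CPM and 8.25 and 8.16 CPM in 786-O. IDH2, a metabolic enzyme on the list that makes a co-substrate of demethylases, fell by 1.19 on the log2 scale. EZH2, the Polycomb methyltransferase named after its value was seen, rose by 0.26. HOX genes, which keep positional identity, had 17 of 32 lower and 4 higher, beside 28.1% and 28.4% of all genes. The HOXB cluster had 7 of 8 lower and 0 higher, the HOXA cluster 7 of 11 lower and 1 higher, and the HOXD cluster 1 of 7 lower and 3 higher (3 lower with upper quartile scaling). HOXB5 and HOXA5 fell by 1.67 and 1.41 on the log2 scale. Neighbouring genes were also lower at both clusters, HOXB on chromosome 17, as given below, and HOXA on chromosome 7, where the window of 15 genes from CBX3 to HOXA9 had 12 genes lower and 1 higher (median −0.96). Of 41 cancer-testis and germ cell genes, only 13 were expressed enough to be tested, and 6 were 2-fold lower and 0 higher, or 2 in all at a minimum count of 50.

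Other signalling lists moved in both directions. Of 24 genes of ERK pathway output, 16 rose and 5 fell, with a median of 0.63. The ETS factors of that list parted, ETV5 at 34.2 and 33.8 CPM in 786-M1A, against 11.6 and 10.49 CPM in 786-O, and ETV1 at 0.355 and 0.381 against 7.11 and 6.16 CPM. Of 27 cell death genes, 3 were 2-fold lower, namely BMF, a BH3-only killer protein (1.26 and 1.06 CPM against 23.5 and 20.3 CPM), BCL2L11 (−1.2) and the survival protein BCL2 (−1.83). The BH3-only gene BID was 2-fold higher, with 109 and 104 CPM against 49.6 and 46.3 CPM, and the list's share of 14.8% called at 2-fold was near the 13.2% of all genes. Actin regulators had 27 of 48 higher and 15 lower. At 2-fold or more, however, 9 were lower and 3 higher, together 25% against 13.2% of all genes. RHOB, a small GTPase of endosomes, had 22.2 and 21.5 CPM in 786-M1A against 104 and 107 CPM in 786-O, and MYO1D, a membrane-bound myosin, 1.26 and 1.44 against 22.8 and 21.8 CPM. Of 25 immune checkpoint and tumour surface genes, 13 rose and 8 fell, with 4 at least 2-fold higher and 2 lower. NT5E, which makes adenosine at the cell surface, had 136 and 145 CPM against 24.8 and 22.95 CPM. The T-cell inhibitory ligands CD274 and PDCD1LG2 rose by 1.31 and 2.30. In contrast, LGALS9 of the same list, named after its value was seen, had 1 count in 786-M1A and 225 in 786-O. Of 5 tested metallothioneins, 3 were 2-fold higher, and reads of these near-identical genes may be split between them.

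Some lists had few or no large changes. Of 20 MHC class I and peptide loading genes, 7 rose and 9 fell, with none at 2-fold. Among 22 tumour suppressors and chromatin regulators of renal carcinoma, 7 rose, 8 fell and 1 was 2-fold lower. Over 50 lists, the median difference of 4 (BCL2 family, integrins, keratins, and tumour suppressors) lay within 0.10 of 0 and changed sign between scalings, so no direction is given for them as lists. Of 203 named genes called with at least 2-fold, the largest adjusted p was 0.0144 (edgeR).

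**Figure D4:**
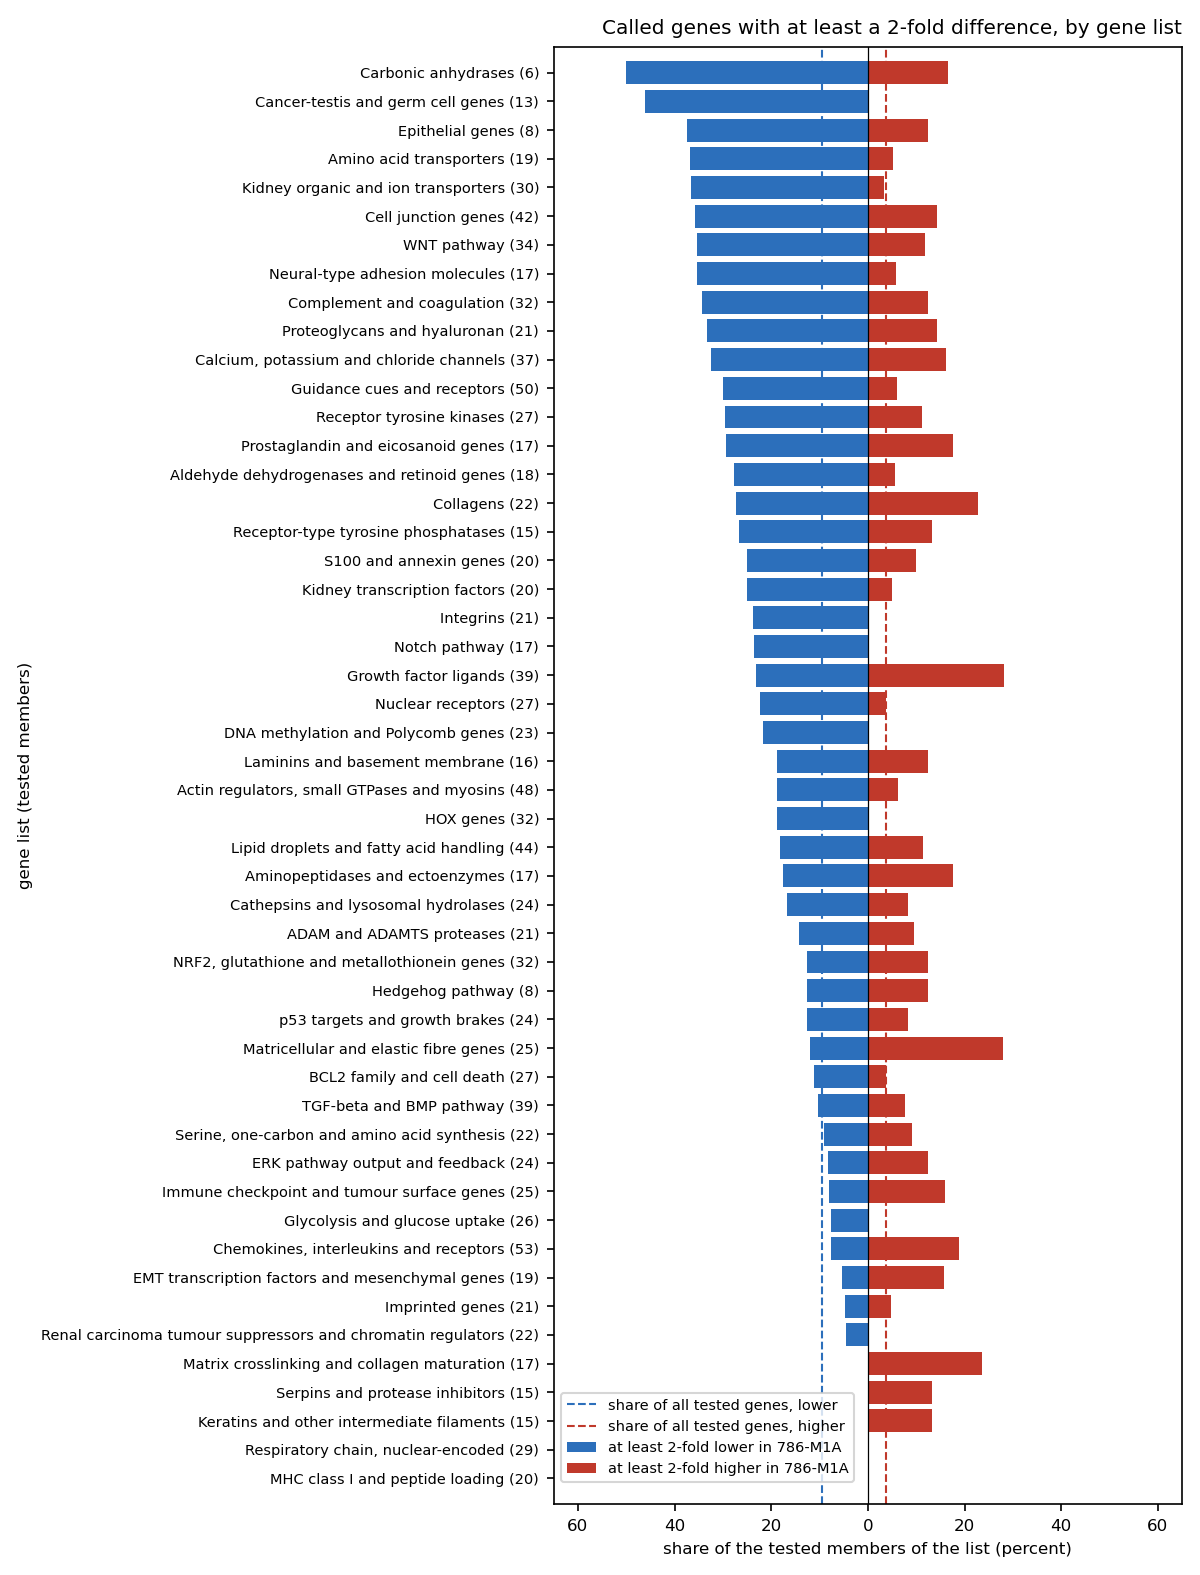
Share of the tested members of each of 50 gene lists that were called at least 2-fold lower (left) or higher (right) in 786-M1A, in percent, with the number tested in parentheses and dashed lines at the shares over all tested genes (9.4% and 3.82%). Growth factor ligands and matricellular genes extend furthest to the right, and carbonic anhydrases and germ cell genes, with 6 and 13 tested members, furthest to the left. The lists were not matched for expression level.

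Differences of neighbouring genes were not spread evenly over the chromosomes. For 14966 of the tested genes (96.7%), the order on the chromosome was taken from RefSeq on GRCh38.p14. The median difference of all tested genes of a chromosome was highest for chromosome 22 (0.30) and then for 16 (0.14) and 9 (0.13), and lowest for chromosome 15 (−0.30) and then for 17 (−0.27) and 19 (−0.15). In windows of 25 consecutive tested genes, the median ran from −0.82 to 0.70, and 95% of 14414 overlapping windows lay between −0.43 and 0.35. Windows with a median under −0.3 made up 50.1% of those on chromosome 15 and 43.8% on chromosome 17, against 6.30% over all chromosomes. Windows above 0.3 made up 52.9% on chromosome 22, 18.8% on chromosome 9, 16.6% on chromosome 7 and 11.52% on X, against 4.08% over all.

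The window with the highest median lay on X from TMEM187 to F8A1, where 21 of 25 genes rose and 1 fell (median 0.70). Next came X from IDS to FAM58A (0.64) and chromosome 22 from LINC01311 to KLHL22 (0.61), where 21 rose and 0 fell. The lowest lay on chromosome 4 from DCTD to CYP4V2 (−0.82), where 15 fell and 4 rose. On chromosome 17 from ARHGAP27 to SP6 the median was −0.78, with 20 genes lower and 1 higher, of which 9 and 0 were at least 2-fold. The window of 51 genes from ACBD4 to HOXB9, which overlaps it and reaches the HOXB cluster, had 39 genes lower and 3 higher (median −0.62). On chromosome 19 from ZNF45 to APOE it was −0.72, with 17 lower and 1 higher.

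**Figure D5:**
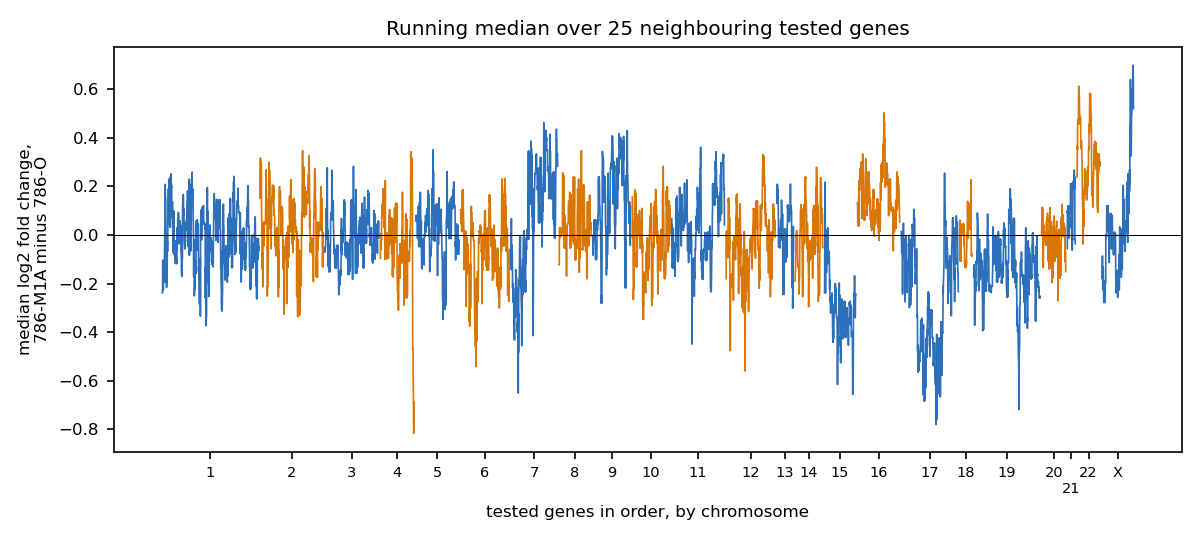
Median log2 difference (786-M1A over 786-O) in windows of 25 consecutive tested genes, in chromosome order along the x axis, with colours alternating by chromosome. Chromosome 22 lies mostly above 0, and chromosome 15 and most of chromosome 17 lie below it.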

How the data were processed

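Gene expression was measured in 2 libraries of 786-M1A and 2 of 786-O by stranded poly(A) RNA-seq. The deposited expected count per gene symbol, and the deposited TPM beside it, were made by the authors with RSEM and Bowtie2 on hg19, per the submitters' processing notes. Neither versions nor a strand setting are stated in the labels. Expected counts, 30.4 to 31.2% of them not whole, were rounded to whole numbers and tested with edgeR 4.0.16 (R 4.3.3): a filter at a minimum count of 10 (filterByExpr), TMM scaling, a robust quasi-likelihood fit of these 4 libraries alone (2 residual degrees of freedom), and Benjamini-Hochberg adjustment over 15474 genes. CPM is the count per 1000000 of the TMM-scaled total. Deposited TPM was used for cell type markers, for the 786-M1A_SC libraries and for limma 3.58.1. DESeq2 1.42.0 was another alternative.

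The members of the comparison and the 50 gene lists (1579 genes) were chosen with earlier results of these data known. Named genes are the 12 largest called rises and falls with at least 5 CPM in a line and no overlap, up to 4 genes of each list and direction at 2-fold or more, and the cell type markers. Y-linked, antisense, read-through, small RNA and similar symbols were left out of naming. The labels give no batch. Replicates of a line differed by more than sampling noise (mean chi-square per gene 7.14 for 786-M1A and 5.33 for 786-O). Same-numbered libraries were not shown to be pairs. A comparison of promoter CG content over all genes is void, since 76.0% of tested genes have an entry in the promoter table, under the 80% required. Depth, 39698973 to 52706490 expected counts per library, limits values under about 1 CPM. The fitting step was tested on simulated counts. Some results are not reported here.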

Additional observations from a re-analysis of the deposited data

Results flagged for a closer look

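In the 6 libraries of 786-M1A with a non-targeting CRISPRi construct, 1 library lay apart from the others at 3 genes by the ratio of its gap to the whole range, which lay above Dixon's 95% critical value for 6 samples. For WLS the ratio was 1.0, with 5 libraries at 0 and 1 at 0.03 TPM. For LRCH2 it was 0.75, with a highest value of 0.08 TPM, and for ANO3 it was 0.667, with a highest value of 0.06 TPM. All of these levels are near 0, where the deposited TPM is written in steps of 0.01, and chance flags about 1 in 20 groups.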

How the results depend on the processing

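None of the 217 named genes reversed a called direction under an alternative that tested it (6 were not tested at a minimum count of 50). With OS-LM1 in the fit, 5064 genes were called (2397 higher and 2667 lower), and CACNA2D1, KRT18, RGS5 and KDR lost their call. KDR also lost it with DESeq2, with limma, and without 786-M1A replicate 2 or 786-O replicate 2. Testing against a 2-fold difference (glmTreat) called 1188 genes, 348 higher and 840 lower, and 47 named genes lost their call. With limma on log2(TPM + 1), 315 genes were 2-fold higher and 724 lower. Leaving out 1 library at a time gave 7381 to 8309 calls, 578 to 662 of them 2-fold higher and 1326 to 1491 lower. Genes present in 1 line and near 0 in 786-M1A numbered 45 when 1 CPM counted as present and 1 when near 0 meant 0 counts, and those near 0 in 786-O numbered 3 at 1 CPM. The replicate block gave 9134 calls, and as the correlation of same-numbered libraries was 0.0430 over 2 pairs, the numbers were not treated as pairs. Windows of 51 and 15 genes gave highest medians of 0.59 and 0.90 and lowest medians of −0.63 and −0.99. Renal tumour suppressors had 2 genes called 2-fold with upper quartile scaling and 0 at a minimum count of 50. The causes of these changes were not tested. At these depths a gene under 1 CPM rests on few counts.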
